A study of Homo sapiens with 6 samples.

Results

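Genes that build, cut, cross-link and pull on actin filaments were compared between Caki2 cells that carried an empty vector (Caki2+Vector) and Caki2 cells that re-expressed PBRM1 (Caki2+PBRM1). The 47 genes were taken by symbol from a list arranged by role, which was drawn up with earlier results of these data known, and all 47 were present among the 25369 genes of the deposited tables. Of these, 41 had at least 10 normalized counts in at least 3 libraries and were tested together with all 13303 genes that passed the same filter. With PBRM1, transcripts of the severing proteins scinderin (SCIN) and gelsolin (GSN) rose 4.11-fold and 2.36-fold, those of caldesmon (CALD1) rose 2.45-fold, and those of myosin light chain kinase (MYLK), tropomyosin 1 (TPM1), calponin 3 (CNN3) and zyxin (ZYX) rose less. Transcripts of the capping protein CAPG and of radixin (RDX) fell. β-actin, the cofilins, the non-muscle myosin heavy chains MYH9 and MYH10, and ezrin and moesin did not pass the test.

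Caki2 is an established kidney carcinoma cell line that lacks PBRM1 protein, and PBRM1 is a bromodomain subunit of the PBAF chromatin remodelling complex. Both groups were stable lentiviral lines treated with doxycycline at 2 µg/ml. The control carried the empty doxycycline-inducible vector and the other group the same kind of vector with full-length PBRM1, with 3 RNA-Seq libraries (replicates A, B and C) in each. The comparison asks which transcripts differ when PBRM1 is put back. Each group is one transduced line, so a difference between the lines and an effect of PBRM1 cannot be told apart, and p-values measure only the spread between these 6 libraries.

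Actin monomers (G-actin) join into filaments (F-actin) whose length is set by assembly factors such as formins, profilins and the Arp2/3 complex, and by proteins that sever, cap or depolymerize them. Crosslinkers arrange filaments into bundles and networks. Non-muscle myosin II pulls on them when its light chain is phosphorylated, while tropomyosins, caldesmon and calponins coat filaments and govern how myosin and severing proteins reach them. Focal adhesions and the ezrin, radixin and moesin proteins fix filaments to the membrane, and in kidney epithelium these links shape the brush border and the contacts of the cell with its matrix.

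Values are normalized counts, which are reads on a gene divided by a size factor for each library. Libraries held 7312955 to 10835355 reads on genes. PBRM1 had 195.0, 182.3 and 182.2 normalized counts in Caki2+Vector replicates A, B and C and 2431.7, 2520.7 and 2682.4 in the Caki2+PBRM1 replicates, so the libraries matched their labels. The control is labelled as having no PBRM1 expression, but its PBRM1 transcript was above 0, and the study describes the loss in Caki2 cells as one of protein. Of 11 renal epithelial and carcinoma markers, E-cadherin (CDH1) stayed under 10 normalized counts in all libraries, CA9 was also below the filter, and the other 9 were tested. The renal list summed to between 34819.3 and 35905.0 in control libraries and between 34995.2 and 35859.5 with PBRM1. A list of 6 smooth muscle markers that are not members summed to 1872.5 to 1947.7 and 1752.8 to 1828.0, with LMOD1 under 10 and none of its 5 tested genes called. All 4 endothelial markers, the leukocyte markers PTPRC and CD3E, and the fibroblast markers DCN and LUM were under 10 in every library. The leukocyte list nevertheless summed to 2000.3 to 2145.6 and 1899.3 to 1937.7, since its CD68, the 1 gene of it that was tested, had 1991.8, 2139.9 and 2075.9 normalized counts against 1919.4, 1935.0 and 1897.6 and was called lower (log2 fold change -0.11, limma adjusted p = 0.0461). The fibroblast list summed to 104.3 to 111.5 and 101.6 to 128.0, and none of COL1A1, PDGFRA and PDGFRB was called. The part of these cell type markers in the members' results was not tested.

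Library A of Caki2+Vector stood apart. Between pairs of Caki2+Vector libraries, the spread of counts relative to sampling noise (chi-square per degree of freedom) was 3.09 for A and B and 2.84 for A and C, against 1.34 for B and C and 1.19 to 1.22 among Caki2+PBRM1 libraries. Genes of high GC content were low in it: over the 12100 tested genes with a GC value, the median log2 difference of A from the mean of B and C was 0.08 in the lowest and -0.15 in the highest of 4 bins of GC content. Among the 41 members, 9 were lower in A by 0.15 or more on the log2 scale, namely ACTB, PFN1, ACTN4, FLNA, FSCN1, CNN2, MYH9, MYH10 and ZYX, with transcript GC contents of 48.9 to 65.0%. ZYX differed most, at -0.31, followed by FLNA at -0.29 and FSCN1 at -0.27. What library A contributes to a result was not tested as a cause. Changes in the call of a member without it are stated, and sizes without it are given for some genes only. Among the others, the log2 fold change of ACTG1 went from 0.191 to 0.145 and that of DSTN from 0.158 to 0.198.

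**Figure D1:**
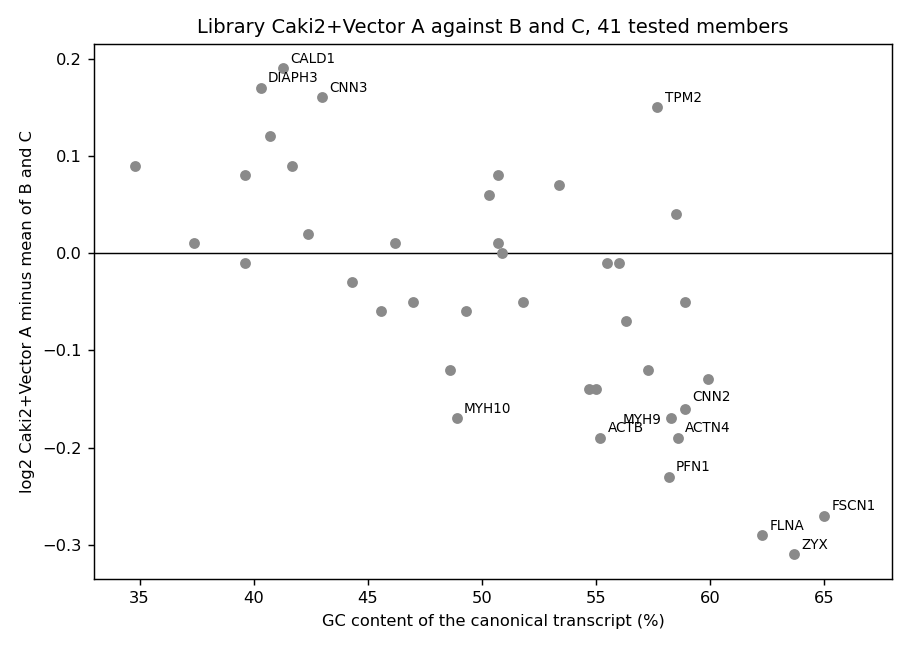
Log2 difference of Caki2+Vector library A from the mean of libraries B and C (vertical axis) against the GC content of the canonical transcript in percent (horizontal axis), 1 point for each of the 41 tested members, with names where the difference is 0.15 or more. ZYX, FLNA and FSCN1, at the GC-rich end, sit lowest, and CALD1, DIAPH3 and CNN3 highest.

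Stretches before a RefSeq transcription start (assembly GRCh38.p14) of SCIN, MYLK and TPM1 are shown, each as 250 bases read 5′ to 3′ up to that start. These are the called genes with a log2 fold change of at least 0.5 that have a single window in the promoter set used. A gene can have other starts that the set does not hold. Whether the start shown is that of the canonical or full-length transcript was not checked. A stretch can therefore lie before an internal start, and is not to be read as the promoter of the full-length transcript. Capitals mark a TATA box (TATAAA on either strand) or a CArG box, the site of serum response factor, which drives many actin and smooth muscle genes with its actin-sensing cofactors. The SCIN stretch is chr7:12570470-12570719 on the plus strand, that of MYLK chr3:123620549-123620798 on the minus strand and that of TPM1 chr15:63048239-63048488 on the plus strand.
SCIN: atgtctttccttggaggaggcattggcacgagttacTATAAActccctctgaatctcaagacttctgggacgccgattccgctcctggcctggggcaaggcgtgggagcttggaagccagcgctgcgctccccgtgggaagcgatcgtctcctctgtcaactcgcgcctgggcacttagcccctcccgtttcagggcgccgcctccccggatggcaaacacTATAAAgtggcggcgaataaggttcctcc
MYLK: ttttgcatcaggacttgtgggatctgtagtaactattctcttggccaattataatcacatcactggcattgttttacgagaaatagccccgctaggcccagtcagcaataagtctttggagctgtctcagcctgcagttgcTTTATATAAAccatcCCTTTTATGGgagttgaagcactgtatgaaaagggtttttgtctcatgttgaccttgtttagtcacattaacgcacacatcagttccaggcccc
TPM1: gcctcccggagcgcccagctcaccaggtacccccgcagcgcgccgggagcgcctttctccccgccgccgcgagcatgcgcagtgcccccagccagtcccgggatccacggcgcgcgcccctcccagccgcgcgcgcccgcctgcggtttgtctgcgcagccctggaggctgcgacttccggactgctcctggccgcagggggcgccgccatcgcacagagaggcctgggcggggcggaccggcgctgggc
The SCIN stretch held TATAAA at positions -214 and -29, counting the base before the start as -1. In the MYLK stretch, TATAAA on both strands overlapped at -109 and -105, and a CArG box began at -94. That of TPM1 held neither.

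A CArG box was searched for on both strands in every RefSeq window of 250 bases before to 50 bases after a start. Windows were found for 41 of the 47 members, and 7 of these (17.1%) held a CArG box, against 1.6% of all 27305 genes with a window. A gene was counted, here and for the motifs below, when any of its windows matched. Only 23 of the 41 members had a single window, and more windows give more room for a match. Counted by window, 1.29% of all 35116 windows held a CArG box, and the share of member windows was not computed. A match is a description of these letters and not a bound site. The holders are printed with 10 bases on each side so that their central letters can be compared. Their first bases lay between -173 and -73 from the start. Their coordinates in GRCh38.p14 are ACTG1 chr17:81512874-81512903, ACTG2 chr2:73892888-73892917 and chr2:73892925-73892954, ACTN1 chr14:68977718-68977747, CNN2 chr19:1026509-1026538, FLNA chrX:154374709-154374738, MYLK chr3:123620623-123620652 and TPM4 chr19:16067355-16067384.
ACTG2: gaaaaaaccaCCTTATATGGtaatattgct
ACTG2: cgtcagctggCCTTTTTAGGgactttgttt
MYLK: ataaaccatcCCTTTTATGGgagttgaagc
ACTN1: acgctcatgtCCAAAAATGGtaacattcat
ACTG1: ggaaagatcgCCATATATGGacatgttctg
CNN2: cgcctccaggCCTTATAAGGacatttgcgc
TPM4: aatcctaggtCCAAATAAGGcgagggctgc
FLNA: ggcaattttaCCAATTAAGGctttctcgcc
ACTG1, ACTN1 and MYLK rose with PBRM1 as whole genes, and gene counts do not show from which start the reads came. FLNA, TPM4 and CNN2 did not pass the test, with log2 fold changes of 0.20, 0.08 and -0.08, and ACTG2 was below the filter. SCIN and TPM1 rose and held no CArG box in their single window. Starts of a gene that have no window were not searched, so a CArG box before another start of these genes would have been missed. TATAAA occurred in windows of 14.6% of matched members and 13.99% of all genes, the AP-1 site TGANTCA in 14.6% and 9.37%, and the TEAD site GGAATG in 31.7% and 16.73%. GGAATG holders included CALD1, CNN3, MYLK and VCL among the genes that rose, PXN among those that fell, and ACTA2, MYH9, MYH10, PFN1, LIMA1 and DIAPH3 among those that did not pass.

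Of the 41 tested members, 16 (39.0%) rose with PBRM1 at a limma adjusted p under 0.05, the Benjamini-Hochberg value over all 13303 genes, and 4 (9.8%) fell. Over all tested genes, 16.2% rose and 13.0% fell. Every Caki2+PBRM1 library lay above every Caki2+Vector library for 19 members (46.3%), beside 22.1% of all tested genes, and below it for 5 members (12.2%), beside 19.6%. The median log2 fold change was 0.08 over the members and -0.004 over all tested genes. Called genes with a log2 fold change of at least 0.5 in size were SCIN, GSN, CALD1, MYLK and TPM1, which is 12.2% of the tested members and compares with 7.57% of all tested genes. The members took 2.23% ± 0.084 (SD, n = 3) of control reads on genes and 2.31% ± 0.011 with PBRM1, and the groups did not overlap (exact permutation test, two-sided p = 0.1, the smallest that 3 against 3 allows). Caki2+Vector replicate A was lowest at 2.129%, and without it the control mean was 2.274%. In bulk RNA, fewer cells of a state and less RNA per cell cannot be told apart in any of these values.

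**Figure D2:**
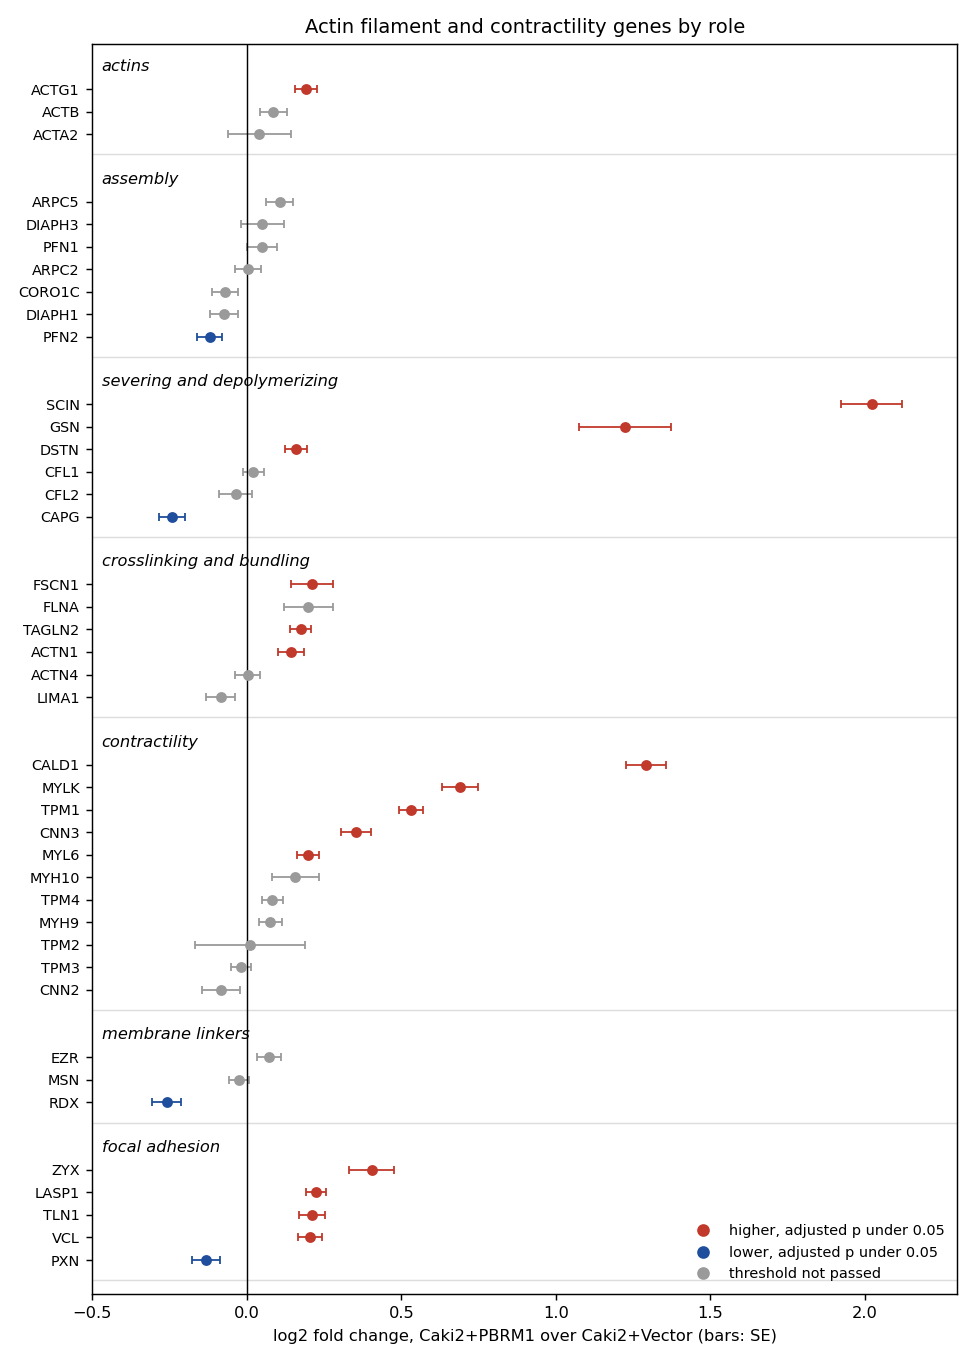
Log2 fold change of Caki2+PBRM1 over Caki2+Vector (horizontal axis, bars show the SE) for the 41 tested members, ordered by size within each role and coloured by whether limma's adjusted p was under 0.05. SCIN at 2.02, CALD1 at 1.29 and GSN at 1.22 stand to the right of all other members, and the lowest value is that of RDX at -0.26.

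The severing and depolymerizing proteins held the gene with the largest log2 fold change among the members and also one that fell, with 3 of 6 tested genes higher and 1 lower. SCIN encodes scinderin, a calcium-dependent gelsolin relative that cuts and caps filaments, and lies at chr7:12610203-12699807 on the plus strand of GRCh37, the build of the deposited counts (hg19). It had 79.5, 72.7 and 77.9 normalized counts in Caki2+Vector replicates A, B and C and 288.1, 328.9 and 329.0 in those of Caki2+PBRM1. All 3 Caki2+PBRM1 libraries were above the control libraries with no overlap, and the log2 fold change was 2.02 (SE 0.099, limma adjusted p = 5.53e-16). No other gene of the tables overlaps SCIN on the annotation and no pseudogene bears its name.

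The study's primers for SCIN, shown because they locate the part of the transcript it measured by PCR, each matched transcript ENST00000297029 once. The forward primer lay in exon 4 at chr7:12644179-12644198 and the reverse primer in exon 5 at chr7:12662444-12662463 of GRCh37, spanning 148 bases of the transcript.
SCIN forward: aacgtctgaaggcaaaccag
SCIN reverse: tcacctccatctggaagctc
The sequencing counts cover the whole gene and not this stretch alone.

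GSN encodes gelsolin, which severs filaments when calcium rises and stays on their fast-growing end. It measured 41.7, 35.9 and 45.5 normalized counts in Caki2+Vector and 94.2, 92.4 and 104.1 in Caki2+PBRM1. The groups did not overlap, and the log2 fold change was 1.22 (SE 0.149, limma adjusted p = 1.65e-07). This rested on 38 to 124 reads per library. RAB14 and the antisense gene GSN-AS1 overlap GSN in GRCh37. RAB14 itself rose from 472.7 ± 29.0 to 542.7 ± 22.3 (SD, n = 3; log2 fold change 0.20, limma adjusted p = 0.017), while GSN-AS1 had 0 to 6.5 normalized counts, and without a stated strand setting reads from such overlaps cannot be told apart.

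CAPG, which caps filament ends without severing them, moved the other way. Its values were 1923.7, 2024.6 and 1959.6 in Caki2+Vector and 1612.8, 1662.1 and 1718.0 in Caki2+PBRM1. Each control library was above each PBRM1 library, and the log2 fold change was -0.24 (SE 0.043, limma adjusted p = 5.48e-05). Of reads on SCIN, GSN and CAPG, SCIN took 3.68% ± 0.25 in the control and 15.17% ± 0.68 with PBRM1, GSN 1.97% ± 0.26 and 4.67% ± 0.21, and CAPG 94.35% ± 0.48 and 80.16% ± 0.59 (SD, n = 3). These are shares of reads and not of molecules, since the transcripts differ in length. CAPG gave most of the reads on these 3 genes in both groups. The gut and kidney brush-border protein villin (VIL1) had no read in any of the 6 libraries, where a count of 0 allows up to 3 reads in a library.

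DSTN encodes destrin, which with the cofilins depolymerizes filaments at their slow end. It rose from 8225.7, 7506.2 and 7608.4 normalized counts to 8924.3, 8703.5 and 8395.5, a log2 fold change of 0.16 (SE 0.036, limma adjusted p = 0.00128) without overlap. CFL1, at 4863.6 ± 80.3 and 4933.5 ± 89.5 (SD, n = 3), and CFL2, at 846.1 ± 37.0 and 825.3 ± 36.9, overlapped between the groups (limma adjusted p = 0.706 and 0.664).

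Of the contractility genes, 5 of 11 tested were higher and none lower, led by CALD1, MYLK and TPM1. CALD1 encodes caldesmon, an actin and tropomyosin binding protein that restrains myosin, and lies at chr7:134429003-134655480 on the plus strand of GRCh37. It had 373.9, 318.4 and 339.2 normalized counts in Caki2+Vector and 829.7, 868.4 and 825.0 in Caki2+PBRM1. The lowest Caki2+PBRM1 library was far above the highest control library, and the log2 fold change was 1.29 (SE 0.064, limma adjusted p = 6.88e-16). Gene counts do not separate the long smooth muscle form of caldesmon from the short form of other cells.

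MYLK encodes the kinase that phosphorylates the myosin regulatory light chain, the switch for non-muscle and smooth muscle contraction. Its values were 629.5, 722.7 and 644.8 normalized counts in Caki2+Vector and 1063.7, 1148.4 and 1013.0 in Caki2+PBRM1, with replicate B highest in both groups and no overlap between them. The log2 fold change was 0.69 (SE 0.058, limma adjusted p = 2.38e-10). The overlapping antisense gene MYLK-AS1 had 4.4 to 12.3 normalized counts. Gene counts do not separate the products of different starts of MYLK, so the full-length kinase transcript was not measured on its own.

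TPM1 encodes a tropomyosin, a coiled coil that lies along the filament. It rose from 2503.0, 2529.1 and 2463.0 normalized counts to 3628.6, 3728.7 and 3473.0, with a spread within groups far below the gap between them. The log2 fold change was 0.53 (SE 0.039, limma adjusted p = 5.8e-12). The forms of TPM1 are not separated by gene counts either. The other tropomyosins did not pass. TPM4 had 6554.6 ± 193.3 and 6936.0 ± 98.0 (SD, n = 3) with no overlap (limma adjusted p = 0.0673). TPM3 had 5931.8 ± 72.6 and 5848.4 ± 59.6, and TPM2 had 55.2 ± 8.5 and 56.3 ± 13.7 (limma adjusted p = 0.695 and 0.976). Without Caki2+Vector replicate C, TPM4 and MYH9 also passed the threshold. Of reads on the tropomyosin genes, TPM1 took 16.62% ± 0.43 in the control and 21.94% ± 0.64 with PBRM1, while the share of TPM3 was 39.44% ± 0.13 and 35.55% ± 0.02.

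CNN3, the calponin of non-muscle cells, rose from 1456.9, 1283.9 and 1330.4 normalized counts to 1729.8, 1675.5 and 1792.7 (log2 fold change 0.35, SE 0.048, limma adjusted p = 1.21e-06), and its groups did not overlap. Its relative CNN2 had 790.7 ± 62.9 and 746.0 ± 53.6 (SD, n = 3; limma adjusted p = 0.334), and without Caki2+Vector replicate A it was called lower. Of reads on the calponins, CNN3 took 63.1% ± 3.06 and 69.89% ± 2.0. MYL6, the essential light chain of non-muscle myosin, rose from 7706.0, 7665.9 and 6998.4 to 8675.1, 8457.3 and 8511.3 (log2 fold change 0.20, SE 0.036, limma adjusted p = 8.22e-05). MYL6B and SMARCC2 overlap MYL6 on the annotation, with MYL6B at 594.2 ± 13.1 and 606.9 ± 26.3 and SMARCC2 lower with PBRM1, at 1900.0 ± 55.7 and 1631.7 ± 41.2. The heavy chains MYH9, at 20606.3 ± 1389.6 and 21686.0 ± 356.5, and MYH10, at 300.0 ± 24.3 and 333.8 ± 12.0, gave limma adjusted p = 0.136 and 0.125. The smooth muscle calponin CNN1, with 0 to 6.0 normalized counts, and a regulatory light chain, MYL9, with 0 to 1.9, were below the filter. The regulatory light chains MYL12A and MYL12B, which are not members, were above it and not called. MYL12A had 2919.8 ± 284.2 and 2746.0 ± 146.6 and MYL12B 3038.1 ± 321.6 and 3004.8 ± 65.2 (SD, n = 3).

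**Figure D3:**
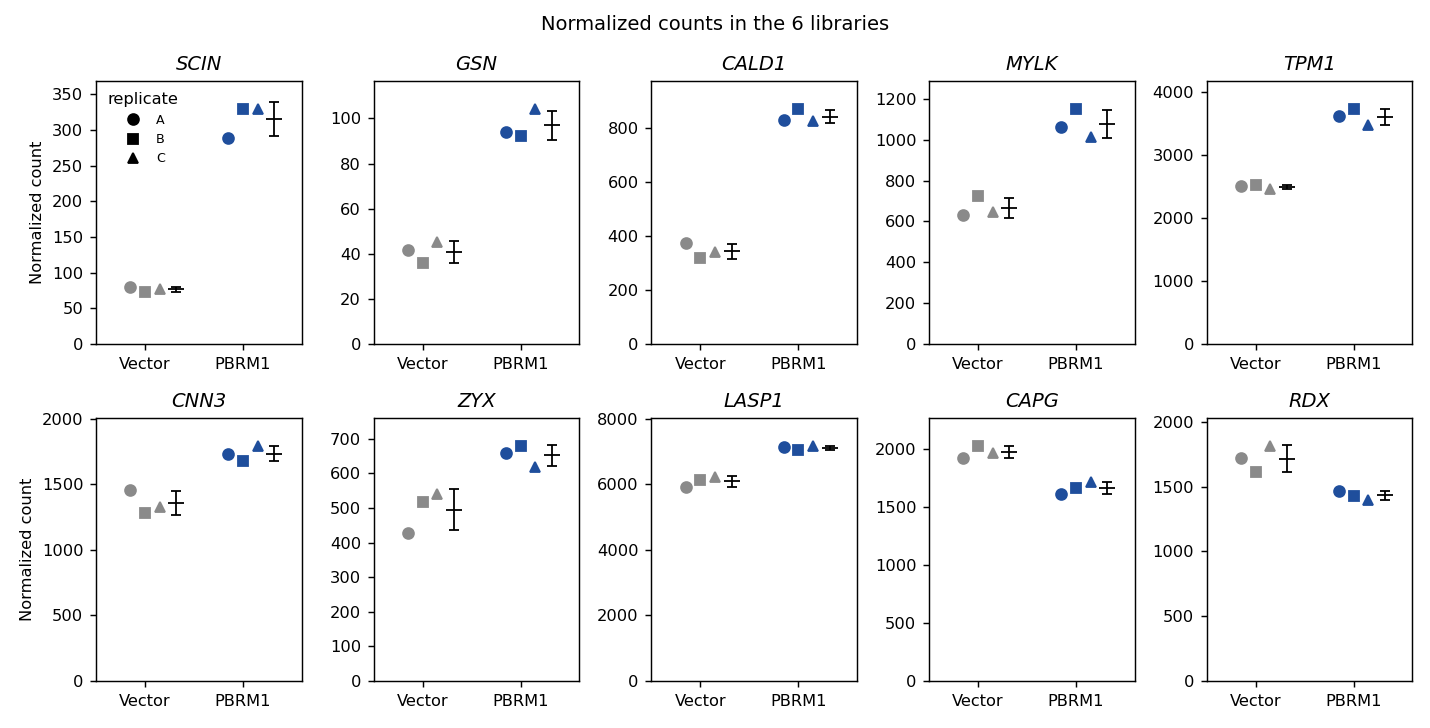
Normalized counts from 0 (vertical axis) of 10 called members in each library of Caki2+Vector (grey) and Caki2+PBRM1 (blue), with a symbol for each replicate and the mean and SD (n = 3) as a bar beside them. The groups do not overlap in any of the 10 genes: 8 lie higher in Caki2+PBRM1, by the widest relative gap in SCIN (72.7 to 79.5 against 288.1 to 329.0), and CAPG and RDX lie lower.

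Among the actins, γ-actin alone passed the test. ACTG1, a cytoplasmic actin of all non-muscle cells, had 12920.4, 14239.6 and 14206.5 normalized counts in Caki2+Vector and 15479.6, 15412.4 and 16291.5 in Caki2+PBRM1, with no overlap. The log2 fold change was 0.19 (SE 0.035, limma adjusted p = 0.000135), but after quantile normalization it was 0.065 (limma adjusted p = 0.148), which ends the call. ACTB, the other cytoplasmic actin, had 29268.6, 32972.4 and 34024.6 against 34269.4, 33551.7 and 34099.7, and the groups overlapped (log2 fold change 0.09, SE 0.044, limma adjusted p = 0.175). With the replicate letter as a block the limma adjusted p of ACTB was 0.0484, without Caki2+Vector replicate C it was 0.0123 at a log2 fold change of 0.129, and without replicate A the log2 fold change was 0.020. ACTA2, the smooth muscle α-actin that also marks myofibroblasts, had 133.5, 145.5 and 130.6 against 140.8, 142.2 and 137.6 (limma adjusted p = 0.811). The enteric actin ACTG2 had 0.9 in 1 library and 0 in the rest. Per kilobase of the canonical transcript, the mean level in Caki2+Vector was 17708.9 normalized counts for ACTB, 7185.4 for ACTG1 and 101.2 for ACTA2. Annotated pseudogenes named after them number 12 for ACTB and 21 for ACTG1, and reads shared with such copies make both levels uncertain. STAMBPL1, which overlaps ACTA2, was lower with PBRM1, at 162.7 ± 9.4 and 128.2 ± 4.1 (SD, n = 3; limma adjusted p = 0.0104).

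Of 7 assembly factors, none was higher and 1 was lower. PFN2, a profilin that feeds monomers to formins, had 2594.9, 2489.5 and 2398.3 normalized counts in Caki2+Vector and 2328.8, 2275.4 and 2277.8 in Caki2+PBRM1, and every PBRM1 library was lower. The log2 fold change was -0.12 (SE 0.040, limma adjusted p = 0.0249). The call was lost with DESeq2 (adjusted p = 0.064) and on leaving out any single Caki2+PBRM1 replicate (limma adjusted p = 0.0586, 0.106 and 0.104 without A, B and C). The Arp2/3 subunits ARPC5, at 1933.0 ± 91.8 and 2079.0 ± 43.9 (SD, n = 3; limma adjusted p = 0.0626), and ARPC2, at 3538.1 ± 231.4 and 3547.2 ± 107.1 (limma adjusted p = 0.946), did not pass. ARPC5 passed without Caki2+Vector replicate A (limma adjusted p = 0.0337) or C (0.0202). Profilin 1 (PFN1), the formins DIAPH1 and DIAPH3 and the Arp2/3 regulator CORO1C had log2 fold changes from -0.07 to 0.05 and limma adjusted p from 0.213 to 0.641, and CORO1C was called lower after quantile normalization.

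Crosslinking and bundling genes gave 3 of 6 tested genes higher and none lower. TAGLN2, a calponin-like filament bundler, rose from 5896.9, 6022.9 and 5846.6 normalized counts to 6733.0, 6702.7 and 6605.2 with no overlap (log2 fold change 0.17, SE 0.033, limma adjusted p = 0.000151). ACTN1, an α-actinin of stress fibres, had 2042.9, 2250.4 and 2240.1 against 2378.6, 2429.2 and 2397.0 (log2 fold change 0.14, limma adjusted p = 0.0111), and its call was lost with quantile normalization (limma adjusted p = 0.08) and without Caki2+PBRM1 replicate B (0.0661). FSCN1, encoding the filopodial bundler fascin, had 3172.3, 3812.1 and 3823.4 against 4103.1, 3986.4 and 4397.1 (log2 fold change 0.21, limma adjusted p = 0.0381). Without Caki2+Vector replicate A, the lowest library, its log2 fold change was 0.123 (limma adjusted p = 0.0017), and its call was lost without Caki2+PBRM1 replicate A (0.0572) or C (0.0765) and with DESeq2 (adjusted p = 0.114).

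FLNA encodes filamin A, which joins filaments into networks. It had 16190.2, 19876.1 and 19656.3 normalized counts in Caki2+Vector and 20815.3, 21223.6 and 21638.7 in Caki2+PBRM1. Replicate A of Caki2+Vector was far below the other 5 libraries, and the groups did not overlap (log2 fold change 0.20, SE 0.080, limma adjusted p = 0.121). FLNA passed with the replicate block (limma adjusted p = 6.99e-05), with edgeR (adjusted p = 0.0389), after quantile normalization (limma adjusted p = 0.00831), without Caki2+Vector replicate B (0.0262) and without replicate A, where the log2 fold change was 0.103 (limma adjusted p = 7.07e-05). ACTN4 had 12071.2, 13873.0 and 13584.4 against 13096.6, 13196.5 and 13218.0, a log2 fold change of 0.00, and was called lower without replicate A. LIMA1 had 1140.1 ± 16.2 and 1075.9 ± 30.7 (limma adjusted p = 0.189). The smooth muscle marker TAGLN, with 4.4 to 14.4 normalized counts, and the muscle filamin FLNC, with 0 to 4.3, were below the filter.

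**Figure D4:**
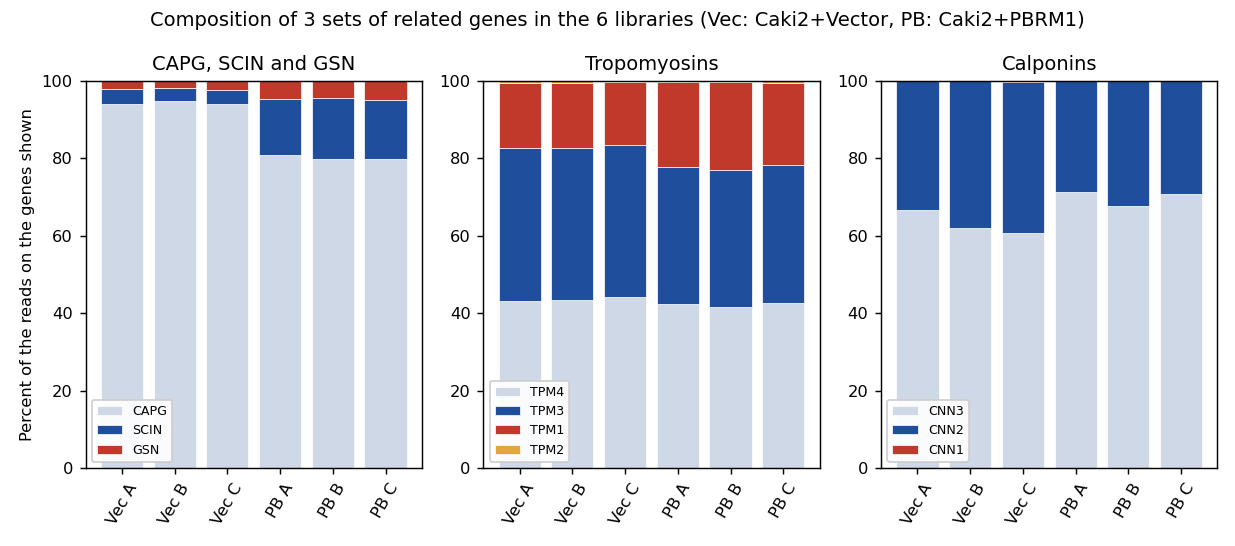
Share of each gene in the reads on the genes shown in its panel (vertical axis, 0 to 100%; of the gelsolin relatives, SCIN, GSN and CAPG), 1 bar for each library of Caki2+Vector (Vec) and Caki2+PBRM1 (PB). SCIN and GSN, TPM1 and CNN3 take larger shares in all 3 Caki2+PBRM1 libraries, SCIN from 3.41 to 3.89% in the control to 14.44 to 15.78%, and CAPG, TPM3 and CNN2 smaller ones.

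All 5 focal adhesion members were called, 4 higher and 1 lower, beside 16.2% higher and 13.0% lower over all tested genes. The 24 other tested focal adhesion genes of the wider list gave 25.0% higher and 16.7% lower. ZYX encodes zyxin, which gathers at strained filaments and adhesions. It had 427.0, 516.8 and 539.4 normalized counts in Caki2+Vector and 657.5, 679.1 and 618.6 in Caki2+PBRM1. Replicate A was the lowest library, all PBRM1 libraries were above the control ones, and the log2 fold change was 0.40 (SE 0.072, limma adjusted p = 0.000119). Without Caki2+Vector replicate A it was 0.302 (limma adjusted p = 1.95e-05).

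LASP1, a LIM and SH3 protein that binds filaments and zyxin, rose from 5915.8, 6143.8 and 6233.7 to 7129.4, 7061.8 and 7176.8 (log2 fold change 0.22, SE 0.033, limma adjusted p = 5.19e-06). Talin 1 (TLN1), which activates integrins and links them to actin, rose from 1896.2, 2079.4 and 2044.7 to 2337.5, 2296.7 and 2329.0 (log2 fold change 0.21, SE 0.042, limma adjusted p = 0.000276). Vinculin (VCL), which strengthens the talin to actin link, rose from 2864.7, 3035.5 and 2952.0 to 3352.4, 3409.6 and 3439.4 (log2 fold change 0.20, SE 0.038, limma adjusted p = 0.000102). The groups did not overlap in any of these 3 genes. Paxillin (PXN), a docking protein of adhesions, fell by 0.13 on the log2 scale, from 1766.5, 1896.2 and 1968.0 to 1747.2, 1723.4 and 1661.8 (limma adjusted p = 0.0256). That call was lost with DESeq2 (adjusted p = 0.0773) and on leaving out any 1 library other than Caki2+Vector replicate A (limma adjusted p from 0.0532 to 0.147).

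The membrane linkers ezrin, radixin and moesin tie filaments to the cell surface, and 1 of 3 was lower. RDX had 1723.9, 1611.8 and 1814.6 normalized counts in Caki2+Vector and 1465.5, 1431.0 and 1400.8 in Caki2+PBRM1. Every control library was higher, and the log2 fold change was -0.26 (SE 0.046, limma adjusted p = 7.06e-05). ZC3H12C overlaps RDX and had 582.4 ± 32.3 and 534.7 ± 4.5 (limma adjusted p = 0.13). Of reads on the 3 genes, RDX took 15.47% ± 0.78 and 13.27% ± 0.25 (SD, n = 3). Ezrin (EZR) had 2155.3 ± 34.2 and 2264.1 ± 29.6 (limma adjusted p = 0.186) and moesin (MSN) 7223.0 ± 191.7 and 7095.8 ± 35.9 (limma adjusted p = 0.612).

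By role, contractility genes took 0.532% ± 0.013 of control reads on genes and 0.565% ± 0.005 with PBRM1 (SD, n = 3), and focal adhesion genes 0.148 to 0.157% and 0.167% in every PBRM1 library, with no overlap in either. Assembly genes took 0.202% ± 0.004 and 0.194% ± 0.002 and membrane linkers 0.123 to 0.13% and 0.118 to 0.119%, where the control libraries were all higher. The shares of the actins, the severing and the crosslinking genes overlapped. Annotated pseudogenes named after a member, whose reads cannot be set apart here, number 5 each for DSTN and MYL6, 8 for CFL1, 9 for TPM3, 11 for PFN1, 12 for CNN2 and 3 each for RDX and TPM4, with 0 to 2 for the members not named here or under the actins. Over 15 of the 20 called members (13 higher and 2 lower), the call was kept in all 17 alternative analyses, and the 5 that lost it in at least 1 were ACTG1, ACTN1, FSCN1, PFN2 and PXN.

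Other genes of the actin pathway, 152 by role and none of them members, gave the wider setting. Of the 135 tested, 31 (23.0%) rose and 20 (14.8%) fell, with a median log2 fold change of 0.03, while 16.2% and 13.0% of all genes did. Serum response factor (SRF), its cofactors, ABLIM1, FHL1 and FHL2 gave 1 of 7 higher, which was FHL1, and none lower. SRF, MKL1, MKL2 and MYOCD were not called, with log2 fold changes of 0.08, -0.12, -0.17 and -0.08. Arp2/3, WASP and WAVE genes gave 2 of 17 higher and 1 lower, and formins 3 of 11 and 1. Genes of monomer binding, capping and the slow filament end gave 6 of 17 higher and 1 lower, other crosslinkers 5 of 16 and 5, other myosins 5 of 14 and 1, other membrane linkers 1 of 10 and 5, and other focal adhesion genes 6 of 24 and 4. The remaining gelsolin relatives gave none of 3 higher and 1 lower.

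The called gene with the largest log2 fold change in this wider list was NEDD9, an adhesion docking protein related to p130Cas, with 25.6, 26.5 and 26.4 normalized counts in Caki2+Vector and 92.1, 97.8 and 81.4 in Caki2+PBRM1 (log2 fold change 1.75, SE 0.163, limma adjusted p = 1.06e-09). WIPF1, which binds and stabilizes WASP, rose from 67.2, 92.6 and 77.9 to 195.0, 160.0 and 191.4 (log2 fold change 1.20, limma adjusted p = 7.4e-09). The single-headed myosin MYO1D rose by a log2 fold change of 0.94 (limma adjusted p = 9.65e-10). The groups did not overlap in any of these 3 genes.

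TMSB4X, encoding a monomer-sequestering thymosin, rose from 2767.2, 2515.9 and 2551.7 to 4306.7, 4182.9 and 3949.7 (log2 fold change 0.67, limma adjusted p = 3.44e-13). The thymosin gene TMSB10 had more counts, 8703.9 ± 647.3 and 9269.3 ± 225.9 (SD, n = 3), and was not called (log2 fold change 0.09, limma adjusted p = 0.101). RND3, a small GTP-binding protein that opposes ROCK1, rose from 560.6 ± 18.9 to 824.8 ± 24.0 (SD, n = 3; log2 fold change 0.56, limma adjusted p = 3.5e-09). Also higher were the adducin ADD2 at a log2 fold change of 0.72, the formin FMN1 at 0.50 (1.5e-05 as limma adjusted p), the adhesion protein TGFB1I1 at 0.44, the membrane scaffold SLC9A3R2 at 0.33, RHOB at 0.21, the WAVE subunit CYFIP1 at 0.20 and the LIM protein FHL1 at 0.18. Without Caki2+Vector replicate A, RHOB was at 0.124, and CYFIP1 was not called without Caki2+PBRM1 replicate A (limma adjusted p = 0.0641). FMN2, at 12.1 ± 3.5 and 20.6 ± 3.1 normalized counts (limma adjusted p = 0.0473), and the muscle actinin ACTN2, at 48.1 ± 10.7 and 65.4 ± 6.9 (limma adjusted p = 0.0427), each lost the call in 10 alternatives, among them leaving out Caki2+Vector replicate A or Caki2+PBRM1 replicate A or B for either gene. Leaving out Caki2+Vector replicate B or Caki2+PBRM1 replicate C also ended the call of FMN2, and leaving out Caki2+Vector replicate C that of ACTN2, whose groups overlapped.

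Of the genes that fell, the bundling protein espin (ESPN) had 129.7, 155.9 and 176.2 normalized counts in Caki2+Vector and 71.5, 64.9 and 70.5 in Caki2+PBRM1 (log2 fold change -1.14, SE 0.125, limma adjusted p = 2.66e-08). MYH14, a non-muscle myosin II heavy chain, fell from 381.5, 401.5 and 429.1 to 308.7, 274.6 and 261.9 (log2 fold change -0.52, limma adjusted p = 3.87e-06). The membrane skeleton protein EPB41 fell by 0.40 on the log2 scale (limma adjusted p = 1.61e-05), and supervillin (SVIL), a gelsolin relative, by 0.24 (limma adjusted p = 6.03e-06). The groups did not overlap in any of these 4 genes.

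**Figure D5:**
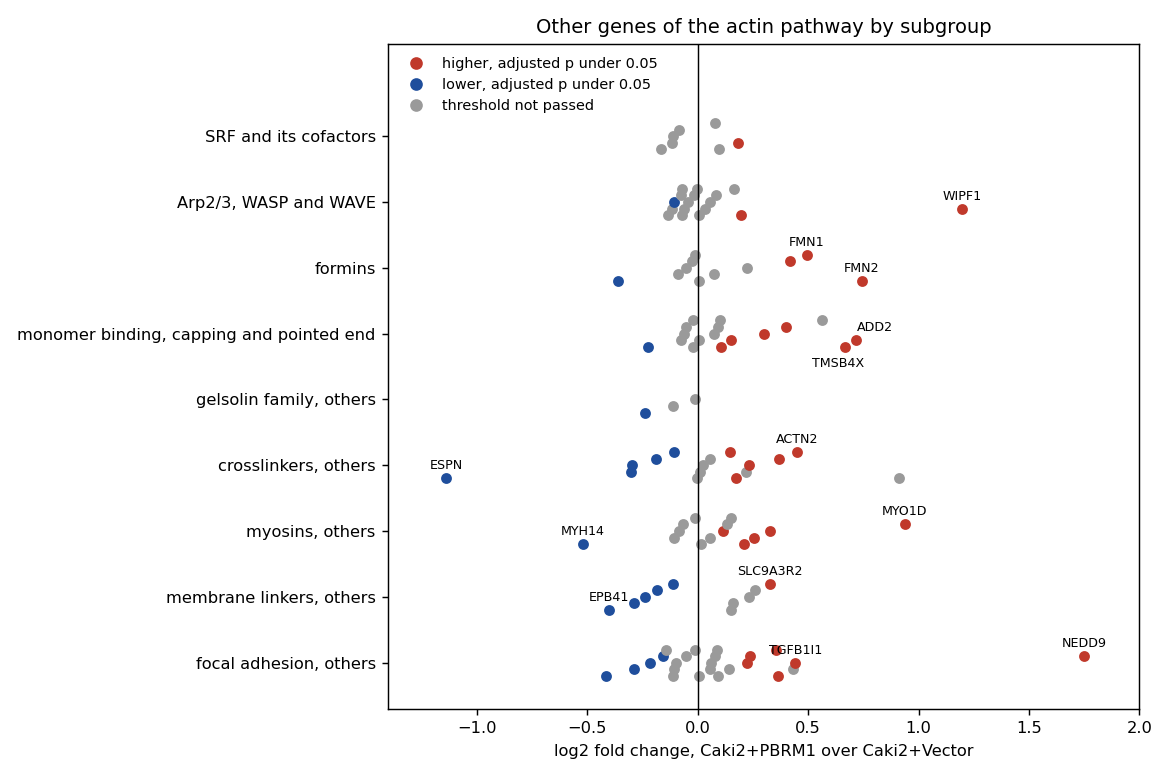
Log2 fold change of Caki2+PBRM1 over Caki2+Vector (horizontal axis) for 119 tested genes of the wider actin pathway in 9 subgroups, 1 point for each gene in its subgroup and coloured by whether limma's adjusted p was under 0.05. Most points lie near 0, with NEDD9 at 1.75 and ESPN at -1.14 as the outermost called genes.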

How the data were processed

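RNA-Seq libraries of 3 Caki2+Vector and 3 Caki2+PBRM1 samples were analysed, grouped by their labels. Per the labels, the authors used STAR, HTSeq, DESeq and DESeq2 on hg19. The signal the authors deposited is, from its values, a read count per gene divided by a size factor: every value was a whole multiple (tolerance 0.001) of its library's step, so whole reads were recovered for 100.0% of values. The strandedness of the counting was not given in the sources used here.

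Genes with at least 10 normalized counts in at least 3 libraries (13303 of 25369) were tested with limma 3.58.1 (trend, robust, R 4.3.3) on log2(normalized count + 1), and Benjamini-Hochberg adjusted p under 0.05 was called. Fold changes on this scale understate those of low genes, whereas folds given as such are ratios of means. edgeR 4.0.16 (quasi-likelihood) and DESeq2 1.42.0 on recovered reads, voom, other scalings, filters and pseudocounts (0.5 and 4), a replicate block and leaving out each library were alternatives. The test was checked on simulated data.

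Coordinates, GC content and overlaps came from GENCODE v44 on GRCh37, the build of the files, with promoters from RefSeq. The members and lists were chosen with earlier results of these data known. Genes named were called members with a log2 fold change of at least 0.5, the 2 largest changes in each role, all actins, members below the filter and the 2 largest called changes of each pathway subgroup. The other members are given so that all are accounted for. Depth was 7312955 to 10835355 reads on genes. Some items are not reported here.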

Additional observations from a re-analysis of the deposited data

How the results depend on the processing

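With DESeq2 and at an adjusted p under 0.01, 2 members were called lower instead of 4, and 12 of the wider pathway list instead of 20, while the share of all tested genes called lower went from 13.0% to 7.77% and 7.71%. Leaving out 1 library at a time gave 2 to 6 members lower, 15 to 20 higher, 13 to 25 pathway genes lower and 25 to 35 higher. In the same runs, 9.12 to 14.4% of all tested genes were called lower and 12.1 to 17.1% higher. PFN2 and PXN were the members lost with DESeq2, and without each Caki2+PBRM1 replicate (2 lower). Without Caki2+Vector replicate A, 6 members were lower, with ACTN4 and CNN2 added. Over 44 named genes and up to 17 alternatives, 695 of 747 comparisons kept direction and side of the threshold, 43 lost the call, 9 gained it and none changed sign. Where not stated, the cause was not tested. A member below the filter could not be tested at this depth: without the filter, TAGLN, FLNC, CNN1, MYL9 and ACTG2 gave limma adjusted p of 0.506 to 0.978.

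The replicate letters did not pair the samples: deviations from the group means of same-lettered libraries correlated at 0.006, -0.008 and 0.014, and not every library correlated best with its own letter. With the replicate block, 18 members were higher (ACTB and FLNA added) and 4 lower, and 33 pathway genes were higher and 23 lower. Quantile normalization moved the median log2 fold change of all genes to -0.025.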
